A study of Mus musculus with 2 samples.

Results

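The 6 genes H2-Aa, H2-Ab1, H2-Eb1, Cd74, H2-DMa and Ciita, which build, load and switch on MHC class II antigen presentation, were followed across the nuclei of the lactating mouse mammary gland. They were taken by exact gene symbol from the 33943 genes of the expression table, and each symbol matched 1 row. The tissue was inguinal white adipose tissue of dams at postnatal day 11, a fat pad that holds the mammary gland, with lymph nodes removed by the submitters and breeding begun at 8 weeks of age. Nuclei of 8 dams were tagged with hashtag oligonucleotides and pooled into 1 droplet RNA library, with a second library for the hashtags. The 4 animals tagged WT were taken as the Oxtr flox group, which carries a floxed oxytocin receptor gene and no named deletion. The 4 tagged Oxtr-KO were taken as the adipocyte-specific Oxtr knockout, whose Cre driver the labels leave unnamed. All 8 were lactating, with 5 pups in 7 of the litters and 3 pups in 1, and no label ties that litter to a dam.

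MHC class II molecules are pairs of an alpha and a beta chain that show peptides from engulfed proteins to CD4 T cells. H2-Aa and H2-Ab1 are the alpha and beta chain of the I-A molecule, and H2-Eb1 is the beta chain of I-E. Cd74, the invariant chain, guards the peptide groove until the molecule reaches the endosome, where the H2-DM dimer, of which H2-DMa is the alpha chain, exchanges the last piece of the invariant chain for peptide. Ciita is the co-activator that switches these genes on by sitting on factors bound at the X and Y boxes of their promoters. Dendritic cells, B cells and many macrophages express the pathway at rest, and interferon gamma can induce it elsewhere.

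The X and Y boxes are the stretch of DNA that the class II genes share, so the sequence just before the start site is shown for the members with an entry in the RefSeq promoter table (build GRCm38.p6). Entries were found for 3 of the 6 members: H2-Aa, H2-Eb1 and H2-DMa, all on chromosome 17. The lines give the 120 bases before the annotated start, read 5′ to 3′ on the gene's own strand, at chr17:34287824-34287943 (minus strand) for H2-Aa, chr17:34305747-34305866 (plus strand) for H2-Eb1 and chr17:34122712-34122831 (plus strand) for the first of the 2 H2-DMa windows. Capitals mark GCAAC, letters of the X box, and ATTGG, the Y box, where they follow each other with 25 to 29 bases between.
H2-Aa: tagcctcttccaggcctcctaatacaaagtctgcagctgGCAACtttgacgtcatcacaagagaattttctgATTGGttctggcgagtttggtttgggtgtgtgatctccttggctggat
H2-Eb1: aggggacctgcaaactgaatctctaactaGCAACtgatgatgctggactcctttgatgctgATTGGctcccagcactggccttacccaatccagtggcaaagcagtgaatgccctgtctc
H2-DMa: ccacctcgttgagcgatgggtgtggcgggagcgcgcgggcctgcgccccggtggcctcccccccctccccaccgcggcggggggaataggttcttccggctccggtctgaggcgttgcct

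In H2-Aa the spaced pair began 81 bases before the start site with 28 bases between its parts, and in H2-Eb1 it began 91 bases before with 27 between. This pair was chosen after the sequences were seen, and searched on both strands it occurred in 77 of 32851 promoter windows of 300 bases (0.234%). Of the other class II genes with a window it was also found in H2-Oa, H2-Ob and H2-Eb2, and not in H2-DMb1, H2-DMb2 or either H2-DMa window. The Y box letters ATTGG alone, which the pair contains, were in 37.4% of windows. The first H2-DMa window held none of the motifs searched, and the second held ATTGG alone, beginning 198 bases before its start. The X1 core ACAGATG (5.01% of windows) was in H2-Aa on the opposite strand, and neither the gamma-activated site TTCNNNGAA (8.3%) nor the interferon-stimulated element (3.44%) was in any member's window. A match describes letters only.

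Of 21805 barcodes with 107910356 unique molecular identifiers (UMIs, counted RNA molecules), 20854 passed the quality limits, and 13057 nuclei were assigned to the 8 animals by their hashtags, 1200 to 1991 per animal with median depths of 4342 to 5610 UMIs. A further 5479 nuclei had no called hashtag, 2041 were hashtag doublets and 277 carried a tag named Unknown_sample2. Of the 1138 immune nuclei 615 (54.0%) had no called hashtag, against 29.1% of all clustered nuclei. The loss was uneven over the other types too: 148 of 545 vascular endothelial and 690 of 1714 fibroblast nuclei had an animal, against 10072 of 12288 secretory luminal nuclei. Oxtr, the targeted gene, in adipocyte nuclei was 5.12 ± 0.858 UMIs per 1000000 (CPM) in the WT animals (SD, n = 4, 4 UMIs in all) and 15.9 ± 3.78 in those labelled Oxtr-KO (18 UMIs, exact permutation p = 0.0286, the smallest that 4 against 4 allows). This went against the direction the label gives. In myoepithelial nuclei Oxtr was 214 ± 18.7 CPM in the WT animals and 183 ± 21.4 in those labelled Oxtr-KO (exact permutation p = 0.0857). The labels do not name the deleted exons, and the cause of the adipocyte difference was not tested. The animals are named by their labels throughout. In the nuclei of all barcodes the members summed to 2054 UMIs for H2-Aa, 2296 for H2-Ab1, 2746 for H2-Eb1, 5896 for Cd74, 1112 for H2-DMa and 645 for Ciita. H2-Ea, the alpha partner of H2-Eb1 and no member here, had 0 UMIs.

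Cell types were called by marker genes on clusters formed without 12 class II genes, the 6 members included, so that class II levels did not place the nuclei, although genes that move with them could. A single cluster of 724 nuclei carried the macrophage markers, and clustering the immune nuclei again, a step added after the clusters were seen, separated 260 nuclei led by Klra2, Fyb and Lair1 from 287 led by F13a1 and Mrc1. Both carried macrophage markers, though not equally. All 10 of the list had UMIs in each, at a summed 968 CPM (747 to 1249 over animals) in Klra2/Lair1 nuclei and 4972 (2703 to 8840) in F13a1/Mrc1 nuclei. All 10 also had UMIs in secretory luminal nuclei, at a summed 136 CPM. In the larger and smaller Klra2/Lair1 sub-cluster 7 and 6 of the 10 stood more than 2-fold above the other nuclei, with F13a1, Cd163 and Mertk in neither. In the larger and smaller F13a1/Mrc1 sub-cluster 10 and 8 did. Cd74, H2-Ab1 and H2-Eb1 were also among the 10 leading genes of the larger Klra2/Lair1 sub-cluster, although they had no part in forming it. Dendritic cell markers summed to 360 CPM (127.7 to 868 over animals) in Klra2/Lair1 nuclei and to 154 (61.6 to 386) in F13a1/Mrc1 nuclei. These ranges overlapped, and the difference was not tested. RNA of milk-producing cells was found in myeloid nuclei too: secretory luminal markers made 77930 to 95345 CPM of the myeloid sub-clusters named here, against 116860 of secretory luminal nuclei themselves, and free RNA and doublets cannot be told apart here.

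Class II transcripts were concentrated in the Klra2/Lair1 myeloid nuclei, which had the highest level of each of the 6 members among the 7 cell types with enough nuclei per animal to be ordered. In the 171 of these nuclei that had an animal, H2-Aa ranged from 302 to 732 CPM over the 8 animals with a median of 446. H2-Ab1 ranged from 363 to 946 CPM with a median of 527. H2-Eb1 ranged from 440 to 1132 CPM with a median of 642. These chain genes had no animal near the epithelial level, since the highest animal of any other ordered type was at 45.2 CPM for H2-Aa, 43.0 for H2-Ab1 and 54.5 for H2-Eb1. The invariant chain Cd74 ranged from 940 to 2077 CPM in Klra2/Lair1 nuclei with a median of 1396, and the highest value in another ordered type was 95.8. Ciita ranged from 126 to 270 CPM with a median of 211, against at most 15.1 in the other ordered types. H2-DMa differed from the rest in being low here too, from 0 to 68.6 CPM with a median of 37.1, and overlapped every other type.

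**Figure D1:**
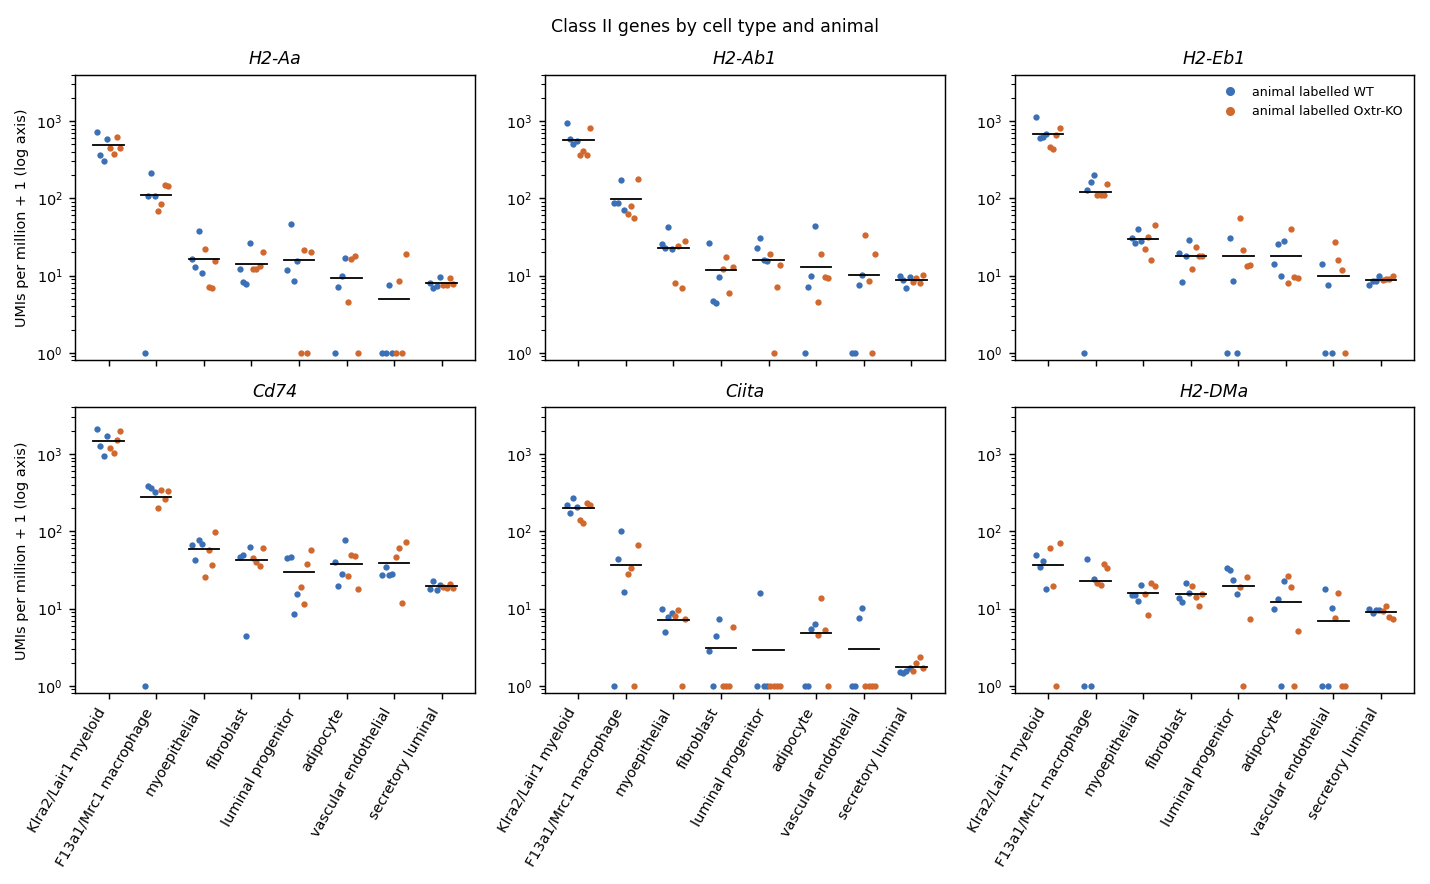
Level of each of the 6 genes (CPM plus 1, log axis) in 8 cell types, with 1 point per animal coloured by genotype label and a bar at the mean of the 8 animals. Klra2/Lair1 myeloid nuclei stand highest for each gene, F13a1/Mrc1 nuclei come next for all 6, and H2-DMa shows the smallest spread between types.

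F13a1/Mrc1 nuclei, second by mean CPM for all 6 genes, were left out of the order because too few animals had 10 of them, and are compared further on. Among the ordered types, next to Klra2/Lair1 nuclei stood myoepithelial cells, the contractile cells around the alveoli, for 5 of the genes and luminal progenitors for H2-DMa. Each step down from Klra2/Lair1 was in the same direction in 7 of 7 animals with 10 or more nuclei of both types, by 4.19 ± 0.748 on the log2(CPM + 10) scale for H2-Aa, 4.16 ± 0.506 for H2-Ab1, 4.03 ± 0.441 for H2-Eb1, 4.38 ± 0.543 for Cd74, 3.53 ± 0.406 for Ciita and 0.92 ± 0.804 for H2-DMa (SD, n = 7). Oxtr-KO animal 3, left out with 9 Klra2/Lair1 nuclei, went the other way for H2-DMa, at 0 CPM there and 24.3 in luminal progenitors. In this animal the other 5 genes were higher in Klra2/Lair1 than in myoepithelial nuclei. The exact two-sided sign-flip permutation p was 0.0156 for each of the steps in the 7 animals, the smallest that 7 animals allow. After Benjamini-Hochberg adjustment over the 36 neighbouring pairs of types and genes it was 0.0938, and no pair passed 0.05. A step at this smallest p cannot pass over 36 pairs unless many more pairs reach it, so the adjusted value does not weigh these steps. Among myoepithelial, luminal progenitor, fibroblast, adipocyte, vascular endothelial and secretory luminal nuclei no neighbours in the order differed beyond their spread. The smallest unadjusted exact p was 0.0859, for H2-Eb1 between myoepithelial and luminal progenitor nuclei. Types further apart in the order were not tested against each other. In this lower group the mean of Cd74 lay between 18.4 ± 1.74 CPM in secretory luminal nuclei, the milk-producing cells, and 57.9 ± 23.2 in myoepithelial nuclei (SD, n = 8), and the means of the chain genes between 4.01 and 28.9 CPM. Over the 8 animals Cd74 ranged from 24.95 to 95.8 CPM in myoepithelial and from 16.1 to 21.5 in secretory luminal nuclei. H2-Eb1 ranged from 14.8 to 43.7 and from 6.59 to 9.01 CPM, and the 6 members summed from 82.7 to 211 and from 45.01 to 54.4. These ranges did not overlap, and those of H2-Aa, H2-Ab1, Ciita and H2-DMa did. How many of all genes have ranges that do not overlap between these types was not computed.

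The 2 myeloid types differed in the same animals. In F13a1/Mrc1 nuclei H2-Aa ranged from 0 to 210 CPM (median 107), H2-Ab1 from 55.04 to 178 (81.4), H2-Eb1 from 0 to 199 (119), Cd74 from 0 to 383 (326) and Ciita from 0 to 98.6 (29.9). These 5 genes were higher in Klra2/Lair1 nuclei in 8 of 8 animals, and the 2 ranges did not overlap for any of them. The share of all genes that behave so between these types was not computed, so the count is a description of the members only. H2-DMa, at 21.8 ± 15.7 CPM in F13a1/Mrc1 and 35.7 ± 23.0 in Klra2/Lair1 nuclei (SD, n = 8), was higher in only 4 of 8 animals. The mean difference on the log2(CPM + 10) scale gave an exact sign-flip p of 0.0078 for each of the 5, the smallest that 8 animals allow, and 0.375 for H2-DMa. All 8 animals were kept here, without the limit of 10 nuclei used for the order of types, and the test was not run with that limit. WT animal 1 was the low F13a1/Mrc1 point, with 6 such nuclei and 2 class II UMIs in all. WT animal 2, with 8 F13a1/Mrc1 nuclei, and Oxtr-KO animal 3, with 9 Klra2/Lair1 nuclei, were also under the limit.

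**Figure D2:**
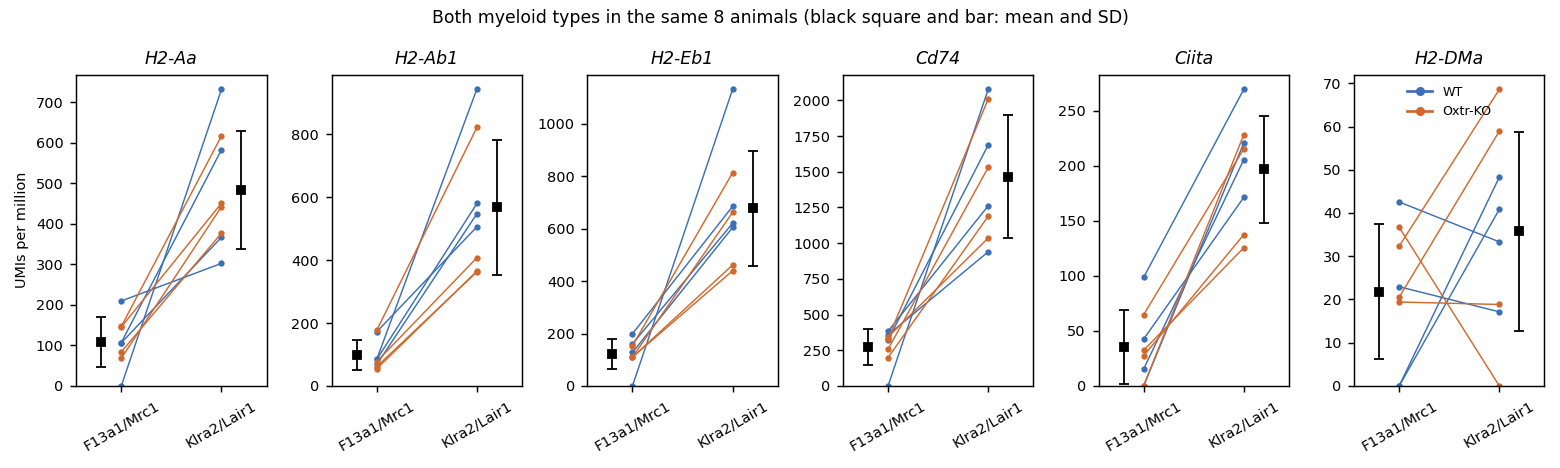
Level of each of the 6 genes (CPM, each panel from 0) in F13a1/Mrc1 and Klra2/Lair1 nuclei, with 1 line per animal and the mean and SD of the 8 animals as a black square and bar. The lines of 5 genes rise in all 8 animals, and those of H2-DMa cross.

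Across all genes, edgeR's quasi-likelihood test with the animal as a block called 249 of 2318 genes (10.7%) higher in Klra2/Lair1 nuclei and 185 (7.98%) lower at an adjusted p under 0.05, with a median log2 difference of -0.0036 over all genes. The 5 members that passed the filter on low counts were called higher, and H2-DMa did not pass it. A member can pass this filter through the type where it is high, so the count of those called supports nothing by itself. H2-Ab1 was higher by 2.40 (SE 0.205, adjusted p = 7.6e-11), Ciita by 2.23 (SE 0.309, adjusted p = 1.04e-06), Cd74 by 2.23 (SE 0.223, adjusted p = 1.91e-09), H2-Eb1 by 2.20 (SE 0.214, adjusted p = 1.2e-09) and H2-Aa by 1.98 (SE 0.241, adjusted p = 9.96e-08) on the log2 scale. Since the other genes could place nuclei in these types, the share of all genes called is not an independent background. The size depended on where the types were divided. Without the 5% of nuclei with the highest doublet scores the types were formed anew and the log2 differences became 1.56 for H2-Ab1, 1.05 for H2-Eb1, 0.92 for Cd74 and 0.81 for H2-Aa, all still called (adjusted p from 1.3e-05 to 0.025), with Ciita not tested.

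Each myeloid type also held a deep sub-cluster in which both class II and macrophage markers were lower per UMI. Of the Klra2/Lair1 nuclei, 97 had a median of 6644 UMIs, 2014 CPM of the 6 members summed and 614 CPM of macrophage markers, against 2583 UMIs, 6376 CPM and 1822 CPM in the other 163. Of the F13a1/Mrc1 nuclei, 75 had a median of 7192 UMIs, 481 CPM of the members and 2395 CPM of macrophage markers, against 2016 UMIs, 1423 CPM and 10410 CPM in the other 212. The deep nuclei were among the highest 5% of doublet scores in 14.4% and 30.7%, against 0.613% of the remaining Klra2/Lair1 nuclei, and the part of doublets in their lower level was not tested. Without them the summed level was 6865 CPM in Klra2/Lair1 and 1885 in F13a1/Mrc1 nuclei, in place of 3428 ± 953 and 659 ± 283 (SD, n = 8), and the 4 members then tested stayed higher in Klra2/Lair1 nuclei, by 2.07 to 2.78 on the log2 scale.

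Smaller immune groups are described over all nuclei, because few of them had an animal, and with no test. The 6 members summed to 6032 CPM in 19 nuclei led by Top2a and Mmp12 (95% Poisson interval 5464 to 6644, counting error only) and to 3527 CPM in 31 nuclei led by Fn1 and Ccr2 (3131 to 3960). Ciita was at 479 CPM (341 to 655) in the Fn1/Ccr2 nuclei and at 222 CPM (197 to 250) in Klra2/Lair1 nuclei counted the same way. B nuclei, of which there were 37, had 1545 CPM (1330 to 1786) with Cd74 at 722 CPM. The 19 dendritic-like nuclei, which carried Flt3, Zbtb46, Clec9a, Ccr7 and Batf3, had 420 CPM (277 to 612), and 18 of their 27 class II UMIs came from 1 nucleus. Their name rests on markers outside their 10 leading genes, and animal Oxtr-KO 3 gave 7 of the 9 with an animal. Plasma nuclei, at 169 CPM, and T or NK nuclei, at 97.6 CPM, lay near the stroma and epithelium, where pericytes had 134, myoepithelial nuclei 136 and fibroblasts 111 CPM.

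**Figure D3:**
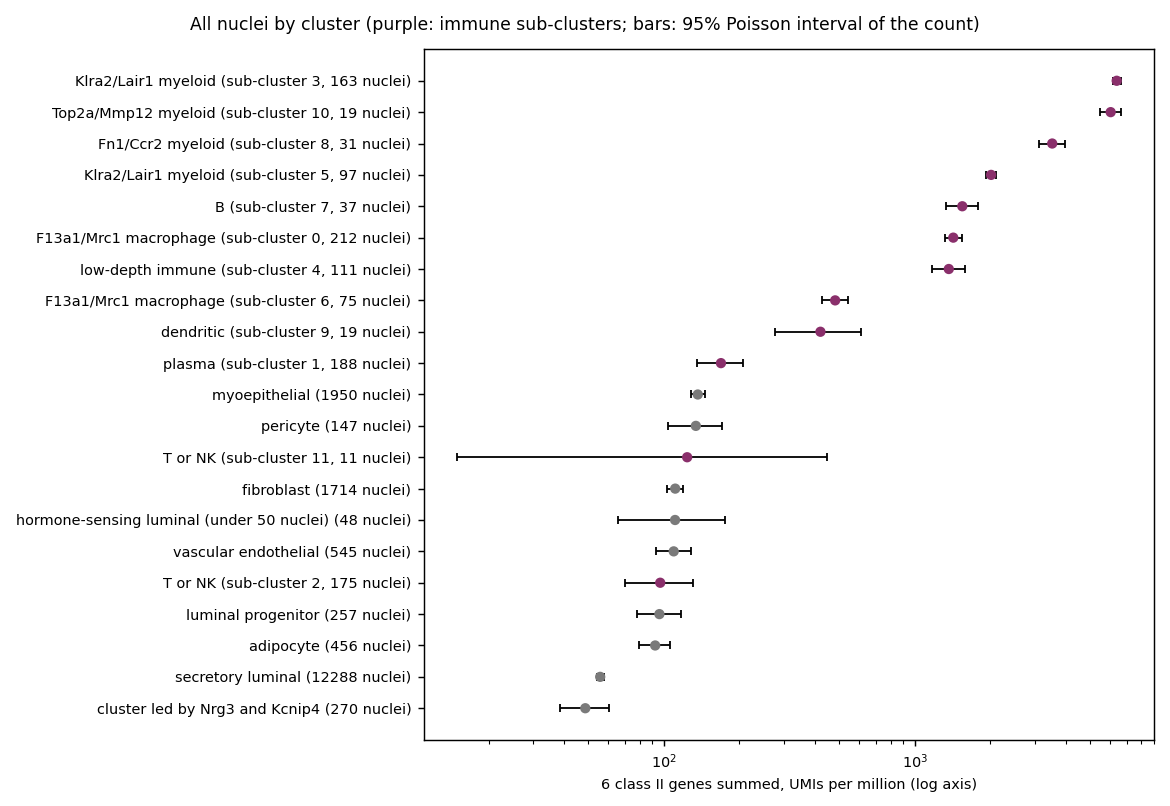
Summed level of the 6 genes (CPM, log axis) in each cluster over all nuclei that were not hashtag doublets, with the 95% Poisson interval of the count as a bar. Immune sub-clusters are purple and other types grey. Myeloid and B nuclei lie between 481 and 6376, and the dendritic-like nuclei at 420, above the other types.

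The mix of the 6 transcripts also differed between types, again described over all nuclei. Cd74 made up 41.4% of the 6-gene UMIs in Klra2/Lair1 nuclei, 39.2% in F13a1/Mrc1 and 38.8% in secretory luminal nuclei. H2-DMa, the exchange factor, made up 1.24% of them in Klra2/Lair1 nuclei (95% exact binomial interval 0.933 to 1.61) and 2.62% in F13a1/Mrc1 nuclei (1.70 to 3.85), against 13.2% in adipocytes (8.81 to 18.7) and 14.6% in secretory luminal nuclei (13.4 to 15.8). Ciita made up 6.18% in Klra2/Lair1 nuclei (5.49 to 6.93), 5.46% in F13a1/Mrc1 nuclei (4.10 to 7.09) and 13.6% in the 31 Fn1/Ccr2 nuclei (9.84 to 18.1), and 1.80% in fibroblasts (0.934 to 3.13). Intervals cover counting error only, and UMIs of 1 nucleus are not independent.

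**Figure D4:**
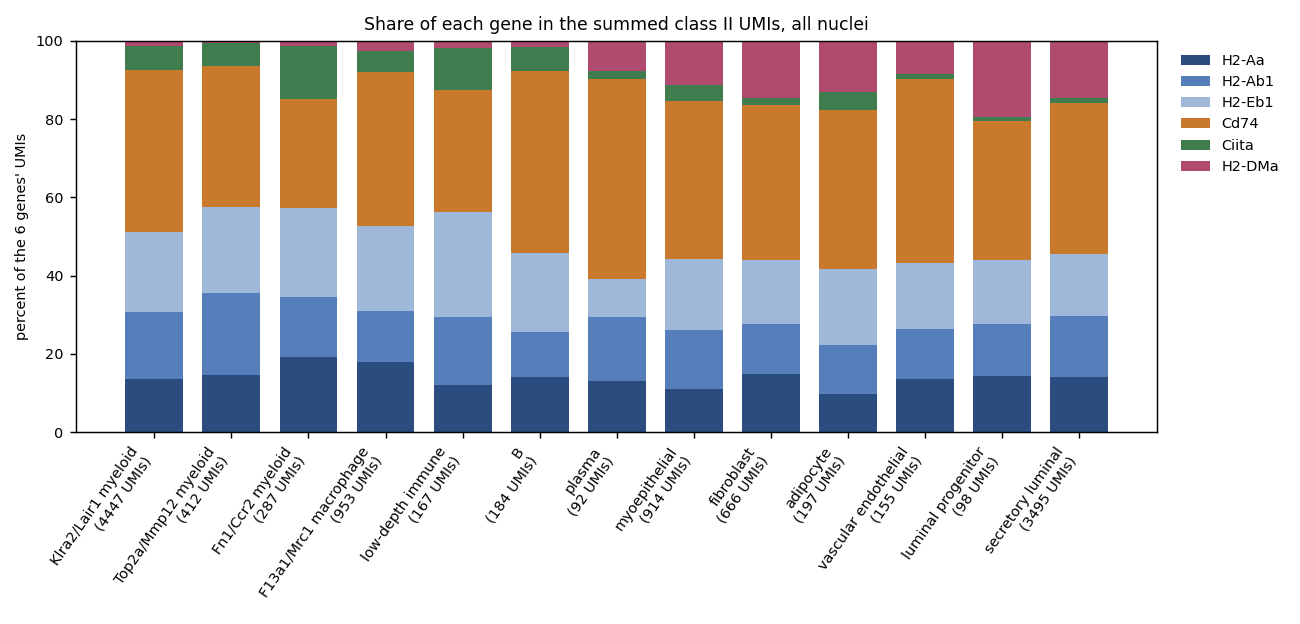
Share of the summed class II UMIs (percent, stacked to the whole) taken by each of the 6 genes in each cell type over all nuclei. Cd74 takes the largest part in the Klra2/Lair1 bar (41.4%), and the H2-DMa part is thin in the myeloid and B bars and wider in adipocytes (13.2%).

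Most Klra2/Lair1 nuclei carried class II transcripts, and a smaller share of the F13a1/Mrc1 and secretory luminal nuclei did. After each nucleus was thinned to 1000 UMIs, at least 1 UMI of the 6 genes was found in 90.6% of the 171 Klra2/Lair1 nuclei (95% exact binomial interval 85.3 to 94.6) at a median depth of 3944 UMIs before thinning, and in 98.8% without thinning. The share in secretory luminal nuclei, which are not professional antigen-presenting cells, was 5.23% thinned and 23.6% unthinned at a median depth of 5224 UMIs, and free RNA and expression cannot be told apart in it. F13a1/Mrc1 nuclei stood between, at 41.96% thinned and 67.4% unthinned. Ciita was found in 17.5% of thinned Klra2/Lair1 nuclei (12.2 to 24.1), 5.59% of F13a1/Mrc1 (2.45 to 10.7) and 0.0398% of secretory luminal nuclei (0.0108 to 0.102). Counted per nucleus over all nuclei, 226 of 260 Klra2/Lair1 nuclei held 5 or more class II UMIs, with a median of 15 and a maximum of 64, and 64 of 287 F13a1/Mrc1 nuclei did, with a median of 1 and a maximum of 41. These 64 nuclei held 71.0% of the class II UMIs of their type. Of the 19 Top2a/Mmp12 nuclei 17 held 5 or more, with the same median of 15 as Klra2/Lair1 nuclei, and 22 of the 31 Fn1/Ccr2 nuclei did.

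In some other types a few nuclei held a large share of the class II UMIs, though most were in the remaining nuclei. Of 1950 myoepithelial nuclei, 25 held 37.6% of the type's class II UMIs, and their myeloid marker genes stood at 1274 CPM against 149 in the rest. Of 456 adipocyte nuclei, 3 held 35.5%, with myeloid markers at 1550 CPM against 192. Of 1714 fibroblast nuclei, 10 held 23.7%, with myeloid markers at 561 CPM against 261. In vascular endothelium 2 of 545 nuclei held 7.74%, with myeloid markers at 319 CPM against 420, and in luminal progenitors 1 of 257 held 8.16%, at 93.9 against 74.2. Secretory luminal nuclei had only 10 of 12288 with 5 or more class II UMIs, holding 1.86% of the UMIs. The part of myeloid RNA or doublets in these nuclei was not tested.

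Ciita and the genes it controls were set side by side within types. In F13a1/Mrc1 nuclei the 36 with a Ciita UMI had 1473 CPM of H2-Aa, H2-Ab1, H2-Eb1 and Cd74 summed and the 251 without had 702, at median depths of 2624 and 2441 UMIs. In Klra2/Lair1 nuclei the 149 with a Ciita UMI had 3207 CPM and the 111 without had 3557, at median depths of 3698 and 2781 UMIs. Nuclei of 1 animal are not replicates, so these values carry no test.

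Genes of the wider pathway were listed by function, and those other than the 12 class II genes could help form the clusters, so their differences are descriptions with no test. H2-DMb1, a beta chain that pairs with H2-DMa, named here after its values were seen and kept out of the clustering, was at 160 ± 34.0 CPM in Klra2/Lair1 and 25.2 ± 20.6 in F13a1/Mrc1 nuclei (SD, n = 8), a log2 difference of 2.54 (SE 0.328, edgeR adjusted p = 2.89e-07). It lost the call without the highest doublet scores (1.00, edgeR adjusted p = 0.0567). Ctss, the protease cathepsin S that trims the invariant chain, was at 491 ± 107 CPM in Klra2/Lair1, 78.3 ± 35.1 in F13a1/Mrc1 and 4.87 ± 1.006 in secretory luminal nuclei. Marchf1, a ubiquitin ligase that removes class II molecules from the cell surface, was at 388 ± 98.7 and 314 ± 233 CPM in the 2 myeloid types and 1.63 ± 1.26 in secretory luminal nuclei. The co-activators Crebbp and Ep300, the interferon gamma signalling genes Jak1 and Ifngr1 and the class I heavy chains H2-K1 and H2-D1 were present in all 3 types: H2-K1 was at 227 ± 63.6, 264 ± 67.0 and 97.8 ± 7.41 CPM and Ifngr1 at 184 ± 30.1, 109 ± 36.2 and 123 ± 15.5 CPM in Klra2/Lair1, F13a1/Mrc1 and secretory luminal nuclei. The median log2 difference between the myeloid types was 0.69 over the 6 of 14 other pathway genes that passed the filter, 0.33 over 6 of 13 class II transcription genes, 0.65 over 3 of 12 genes of interferon gamma signalling and 0.03 over 4 of 13 class I genes, beside -0.0036 over all genes. The other pathway genes did not all go the same way: edgeR called 3 of the 6 higher in Klra2/Lair1 nuclei and 1 lower. It called 1 class II transcription gene and 2 interferon gamma signalling genes higher, and 0 class I genes. Of all 2318 genes tested 249 were called higher and 185 lower. Most listed genes could help form the types, so these counts are no test.

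The genes whose levels ran most like the summed class II level over 10 cell types were ranked among 15913 genes by Pearson's r on log2(CPM + 1). The closest were Csf2ra, a chain of the GM-CSF receptor, at r = 0.985, then Nlrp1a at 0.978, Gm5150 and Tifab at 0.975, and Gm40645 at 0.973. Cd86, a co-stimulatory ligand for T cells, followed at 0.971, then Cd180, Fcgr1, Hpgds and Ccr1 at 0.965 to 0.967. The types come from 1 library and 10 points carry no p. The list depended on the measure, since 3 of the 10 genes stayed among the 10 closest with log2(CPM + 10) and 0 with Spearman's rho.

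The genotype comparison addressed whether class II expression differed in the mammary fat pad of dams labelled Oxtr-KO. No member passed the test in any cell group. In all myeloid nuclei, which join the Klra2/Lair1, F13a1/Mrc1 and smaller myeloid groups (366 nuclei with an animal), the 5 members tested had lower values in the animals labelled Oxtr-KO with groups that overlapped. H2-Eb1 was at 992, 569, 456 and 454 CPM in WT animals 1 to 4 and at 276, 358, 265 and 463 in Oxtr-KO animals 1 to 4. H2-Ab1 was at 887, 497, 396 and 322 CPM in WT and at 230, 304, 151 and 467 in Oxtr-KO animals. H2-Aa was at 630, 345, 285 and 344 CPM in WT and at 226, 277, 280 and 299 in Oxtr-KO animals. In these chain genes WT animal 1 stood highest of all 8, and the highest Oxtr-KO animal, number 4, lay above the lowest WT animal. Cd74 was at 1769, 1154, 732 and 1026 CPM in WT and at 636, 794, 624 and 1086 in Oxtr-KO animals. Ciita was at 189, 144, 226 and 125 CPM in WT and at 111, 93.2, 100.4 and 180 in Oxtr-KO animals. H2-DMa, with 58 UMIs in all, was at 28.98 ± 7.57 CPM in WT and 30.4 ± 13.9 in Oxtr-KO animals (SD, n = 4 each).

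edgeR's quasi-likelihood test called 0 of the 5 members tested in all myeloid nuclei, where it called 0.0% of 4619 genes (329 at an unadjusted p under 0.05). H2-Eb1 had a log2 difference, Oxtr-KO minus WT, of -0.81 (SE 0.268, edgeR adjusted p = 0.573), H2-Ab1 of -0.80 (SE 0.331, adjusted p = 0.641), Cd74 of -0.54 (SE 0.262, adjusted p = 0.715), H2-Aa of -0.53 (SE 0.242, adjusted p = 0.683) and Ciita of -0.44 (SE 0.267, adjusted p = 0.786), beside a median of 0.02 over all genes. Over the alternatives tried the H2-Eb1 difference ran from -0.995 to -0.51 with edgeR or DESeq2 adjusted p from 0.0974 to 0.996. DESeq2 called none of the 5 either, with 2 at an unadjusted p under 0.05 (beside 240 of 4619 genes) against edgeR's 3. This summed level cannot tell fewer class II-rich nuclei from less class II RNA per nucleus. Klra2/Lair1 nuclei made up 81.8%, 81.0%, 56.4% and 44.7% of the 2 main myeloid types in WT animals 1 to 4 and 46.9%, 48.9%, 37.5% and 39.6% in Oxtr-KO animals 1 to 4 (66.0 ± 18.4% and 43.2 ± 5.51%, exact two-sided permutation p = 0.0857).

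**Figure D5:**
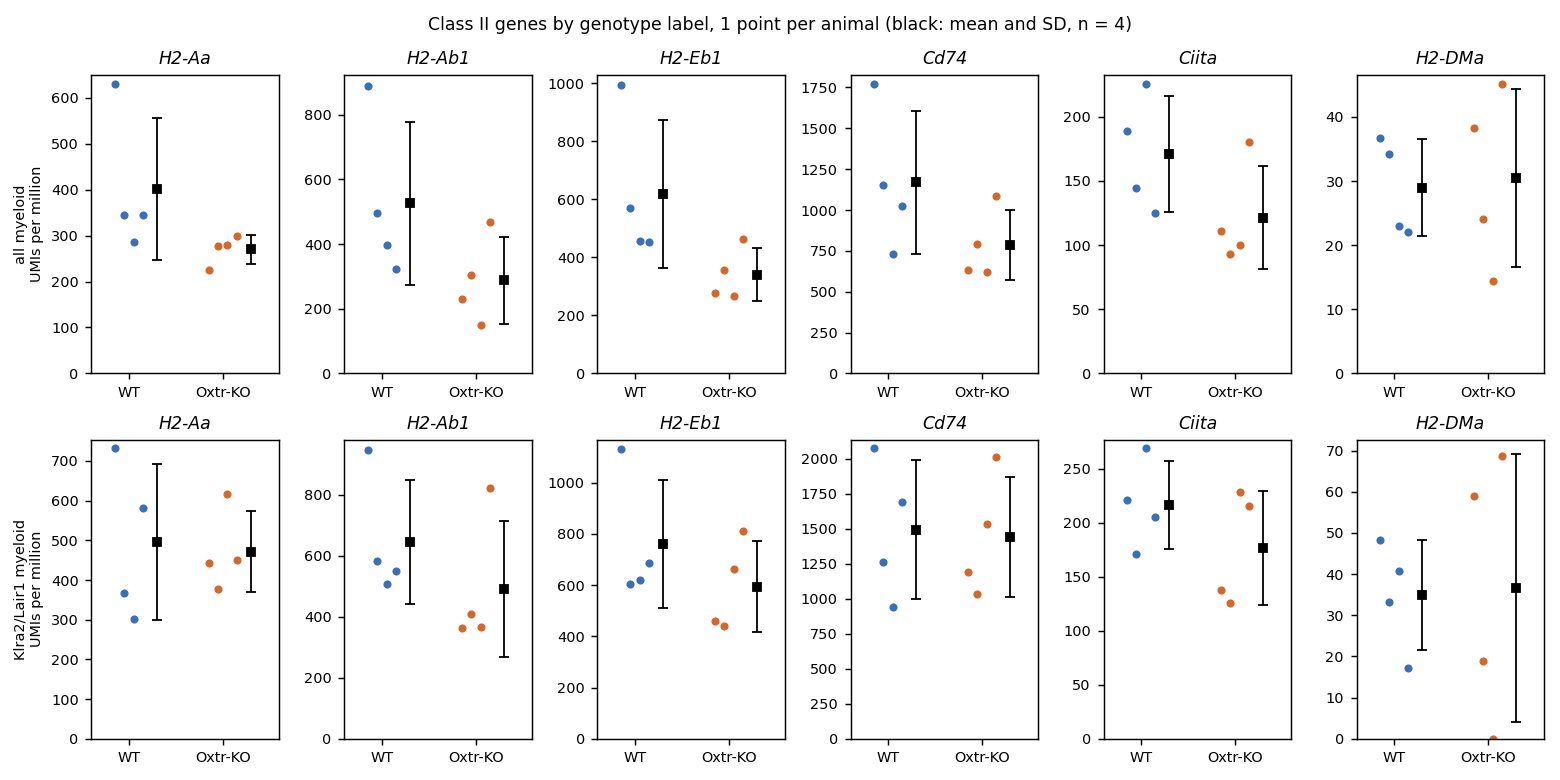
Level of each of the 6 genes (CPM, axes from 0) in all myeloid nuclei (upper row) and in Klra2/Lair1 nuclei (lower row), with 1 point per animal and the mean and SD of 4 animals per label in black. The points of the 2 labels overlap in every panel, and WT animal 1 is the highest point for the chain genes and Cd74 in both rows.

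Within Klra2/Lair1 nuclei the differences were nearer 0 in the main setting, but not without the highest doublet scores. H2-Ab1 was at 946, 581, 507 and 548 CPM in WT and at 363, 408, 365 and 823 in Oxtr-KO animals, and H2-Eb1 at 1132, 605, 621 and 685 against 462, 440, 662 and 813. Animal Oxtr-KO 4 lay among the WT animals for both, and Oxtr-KO 3 had only 9 of these nuclei. H2-Ab1 had a log2 difference of -0.37 (SE 0.279, edgeR adjusted p = 0.913), H2-Eb1 of -0.37 (SE 0.259, adjusted p = 0.896), Ciita of -0.34 (SE 0.271, adjusted p = 0.913), H2-Aa of -0.11 (SE 0.274, adjusted p = 0.975) and Cd74 of -0.06 (SE 0.260, adjusted p = 0.986). These values moved in both directions with the processing. Over the alternatives they ran from -0.90 to 0.22 for H2-Aa, -1.03 to 0.05 for H2-Ab1, -1.003 to -0.05 for H2-Eb1, -0.73 to 0.13 for Cd74 and -1.04 to -0.08 for Ciita. The lowest values came without the highest 5% of doublet scores, where 4 of the 5 had an unadjusted p under 0.05 and none was called (edgeR adjusted p from 0.167 to 0.389). In that setting 537 of 3719 genes had an unadjusted edgeR p under 0.05. In the main setting 149 of 2428 genes did, and 0 of the 5 members. In the main setting none of these 5 was called, beside 0.0% of 2428 genes. Whether the genotype difference itself differed between all myeloid and Klra2/Lair1 nuclei was not tested.

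Outside the myeloid nuclei 0 of 5 members tested were called in secretory luminal nuclei (0.0% of 12935 genes), 0 of 3 in myoepithelial nuclei (0.0138% of 7247) and 0 of 1 in fibroblasts (0.0% of 6447), and no member passed the filter in adipocytes (0.0% of 3973 genes called), luminal progenitors (0.0% of 1841) or vascular endothelium (0.0551% of 1816). Secretory luminal nuclei gave the narrowest values, with Cd74 at 18.5 ± 2.40 CPM in WT and 18.3 ± 1.13 in Oxtr-KO animals and a log2 difference of -0.06 (SE 0.125, edgeR adjusted p = 0.906). Exact permutation tests of the 6 members in 8 cell groups gave no p under 0.0571, the groups overlapped in all 48, and no adjusted p was under 0.963. None of the listed genes of the wider pathway was called in any cell group. On simulated counts of the same size edgeR recovered 39% of 2-fold and 81% of 4-fold changes in all myeloid nuclei, and 49% and 76% in Klra2/Lair1 nuclei. There all genes shared the same spread and 100 genes picked at random were changed at each fold. Real genes differ in spread and hardly any were called, so these shares do not give the recovery of a change in the 6 members.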

How the data were processed

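Nuclear RNA of 8 tagged animals was sequenced as 1 pooled library beside 1 hashtag library. The authors deposited raw UMI counts per gene and per hashtag, made with Cell Ranger 7.2.0 and fastp on GRCm39 per the submitters' processing notes. Values are counts of molecules, not normalized, and the precision of each follows from its UMIs (563 to 1472 class II UMIs per animal).

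Nuclei with at least 500 UMIs and 300 genes and under 5% mitochondrial UMIs were kept. Hashtags were called with HTODemux (Seurat 5.3.0, 9 hashtags, quantile 0.99), and hashtag doublets were removed. Nuclei were clustered with scanpy 1.11.5 (2000 variable genes without 12 class II genes, 30 components, 15 neighbours, Leiden resolution 0.5), and immune nuclei again with 1000 variable genes and 20 components. Scrublet scores served only as an alternative. UMIs were summed per animal and type and tested with edgeR 4.0.16 (quasi-likelihood, TMM, Benjamini-Hochberg, 0.05), on groups with 10 or more nuclei in at least 3 animals per label, and all 8 animals stayed in each fit. DESeq2 1.42.0 was an alternative. Exact permutation and sign-flip tests used scipy 1.17.1 and, between types, log2(CPM + 10). The edgeR genotype test was tried on simulated counts. Members and gene lists were chosen with earlier results of these data known. Genes named are the members, the 2 listed genes per list with the highest mean in the myeloid types, the 10 genes most like the class II level, and genes said to be named after their values were seen. All animals share 1 library, so p-values measure the spread between tagged animals only. The tag Unknown_sample1 was not used for calls, since with all 10 hashtags it took 374 nuclei.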

Additional observations from a re-analysis of the deposited data

Results flagged for a closer look

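Of 108 groups of 4 animals checked, 15 had 1 animal far from the other 3, and chance gives about 1 in 20 for continuous values. In 3 of the 15 the other animals were all at 0, so that 1 or 2 UMIs set the gap and this rate does not apply. In Klra2/Lair1 nuclei H2-Ab1 was at 946 CPM in WT animal 1 (the others 507 to 581) and at 823 in Oxtr-KO animal 4 (363 to 408), and H2-Eb1 was at 1132 in WT animal 1 (605 to 685). In F13a1/Mrc1 nuclei H2-Ab1 was at 173 CPM in WT animal 3 (68.8 to 85.8), H2-Eb1 at 154 in Oxtr-KO animal 4 (109 to 110.1) and Cd74 at 0 in WT animal 1 (321 to 383), which had 6 such nuclei.

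Outside the myeloid nuclei H2-Eb1 was at 38.6 CPM in adipocytes of Oxtr-KO animal 2 (15 UMIs, the others 7.15 to 8.49). H2-Ab1 was at 41.3 CPM in myoepithelial nuclei of WT animal 3 (21.4 to 24.4). In Oxtr-KO animal 4 fibroblasts had H2-Aa at 19.2 CPM (8 UMIs) and Ciita at 4.81 (2 UMIs). In Oxtr-KO animal 3 secretory luminal nuclei had H2-Aa at 8.35 CPM (6.54 to 6.73) and Cd74 at 19.96 (17.5 to 17.9). Ciita in luminal progenitors of WT animal 2 (15.1 CPM) and H2-Aa in vascular endothelium of WT animal 3 (6.55 CPM) rested on 1 UMI each, and Cd74 in vascular endothelium of WT animal 2 (33.9 CPM) on 2.

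Nuclei outside the 8 animals also carried class II UMIs. Those with no called hashtag had 4508 CPM of the 6 genes in 88 Klra2/Lair1 nuclei (95% Poisson interval 4239 to 4788), 1374 in 141 F13a1/Mrc1 nuclei and 267 over all 5479 nuclei. The 277 nuclei tagged Unknown_sample2 had 53.8 CPM (88 UMIs).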

How the results depend on the processing

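Members called between the genotype labels stayed at 0 under all 19 alternatives, the replicate block included (0 members). Replicate numbers gave no clear pairing of the animals (correlation of own numbers 0.24, -0.02, 0.24 and 0.15 over 12771 genes). WT animals 3 and 4 correlated best with their own number and WT animals 1 and 2 with another, and the pairing was not tested. Calls among all genes moved from 2 over the 8 cell groups to 214 without the filter, 32 with DESeq2, 6 with the replicate block, 0 without the highest 5% of doublet scores and 1 to 52 leaving out each animal, 52 without WT animal 4. Within Klra2/Lair1 nuclei the log2 differences grew without the highest doublet scores, to -0.90 for H2-Aa, -1.03 for H2-Ab1, -1.003 for H2-Eb1, -0.73 for Cd74 and -1.04 for Ciita, and the sign of 3 turned under other alternatives. H2-Aa was 0.22 with all 10 hashtags, 0.056 with ratios within barcodes, 0.011 without the deep sub-clusters and -0.28 to 0.13 leaving out each animal. H2-Ab1 was 0.046 with all 10 hashtags. Cd74 was 0.13 with all 10 hashtags, 0.050 with ratios within barcodes and -0.27 to 0.13 leaving out each animal. In all myeloid nuclei the 5 members kept their sign under all 19. The summed Klra2/Lair1 level was 2379 CPM without the highest doublet scores and 6865 without the deep sub-clusters, a setting chosen after seeing the data, and the F13a1/Mrc1 level 1649 and 1885. The secretory luminal level was 55.7 with no animal called. Shares of nuclei with a class II UMI were 98.8% unthinned and 84.8% thinned to 500 UMIs in Klra2/Lair1, 67.4% and 30.6% in F13a1/Mrc1, and 23.6% and 2.64% in secretory luminal nuclei. Of the 10 genes most like the class II level, 3 stayed with log2(CPM + 10) and 0 with Spearman's rho. The cause of these moves was not tested. Klra2/Lair1 stayed first for 6 of 6 members in all 9 alternatives of the order of types. Of these, log2(CPM + 1) could not change a ranking by mean CPM, and the others each left out 1 animal. None formed the types anew, and F13a1/Mrc1 nuclei were not in the order. Ciita and H2-DMa are limited by their UMIs.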
